A study of Homo sapiens with 6 samples.

Results

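AP-1 transcription factor genes and other immediate early genes were examined in polyA+ RNA-seq of DLD-1 cells with or without knockdown of ARMC5. The 10 members, FOS, FOSL1, FOSL2, JUN, JUNB, JUND, EGR1, ATF3, IER2 and IER3, were taken by name from a written list of immediate early genes that includes most FOS and JUN genes, out of 35810 genes with a matched transcript. Of these members 9 passed the filter on low counts, among 13737 genes tested, and IER3 was listed at 0 in every library on its matched transcripts.

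DLD-1 is a human colorectal adenocarcinoma line. All cells carried SPT5-AID, in which the elongation factor SPT5 is tagged for degradation by auxin, and no auxin is named for these libraries. Cells received a lentiviral short hairpin RNA against ARMC5 (shARMC5), an adaptor of the ubiquitin ligase CUL3 that acts on RNA polymerase II (Pol II), or a nontargeting hairpin (shNT), with puromycin selection, and each group held 3 replicate libraries. The ARMC5 hairpin of these libraries is not named in the sources used here, so the comparison is of a single labelled knockdown with its control, both in SPT5-AID cells. The study's methods call its replicates biological, the labels do not say whether they were separate cultures, and the P values measure the spread between these samples. The comparison asked which immediate early transcripts differed in level once ARMC5 was depleted and SPT5 was left in place.

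AP-1 is a dimer of basic leucine zipper proteins. FOS proteins pair with JUN proteins, JUN proteins also pair with each other, and the dimers bind a short palindromic DNA element. Immediate early genes are transcribed within minutes of a growth factor or stress signal without new protein synthesis, many of them hold a paused Pol II near the start site before the signal, and their mRNAs are short-lived. In colorectal cells these genes respond to signaling through the ERK and JNK kinases.

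ARMC5 mRNA was measured first. Its level was 11.9 ± 1.09 CPM (read counts scaled to the TMM-normalized library size, mean ± SD, n = 3) in shARMC5 cells and 25.2 ± 1.95 CPM in shNT cells, a log2 fold change of -1.09 (SE 0.08, adjusted P = 5.32e-07 in edgeR's test). Libraries held 26201112 to 40866478 reads, of which 2.96 to 3.04% lay on transcripts that matched no gene. Mitochondrial genes took 2.76, 2.37 and 3.4% of the reads in the shARMC5 libraries and 1.99, 2.46 and 3.96% in the shNT libraries, and these ranges overlapped. EPCAM, CDH1 and CDX2, markers of colon epithelium, were present at mean levels of 941, 454 and 130 CPM in shNT cells, whereas CDX1 was listed at 0. Of the 12 such markers listed, 9 passed the filter on low counts, with VIL1 the lowest of them at 11.1 CPM in shNT cells. LGALS4, with 3 to 13 reads a library, did not pass, and KRT20 had no value. Summed TPM (abundance scaled by transcript length as well as depth) of the fibroblast markers was 0.518 to 1.01 in shARMC5 and 0.636 to 1.31 in shNT libraries. Leukocyte markers summed to 0.243 to 1.83 and 0.0617 to 1.57 TPM, and endothelial markers to 0.171 to 0.368 and 0.136 to 0.231 TPM. Of these 3 lists, only 2 fibroblast, 2 leukocyte and 1 endothelial marker passed the filter, and 0 of them were called.

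Of the members, 4 rose upon ARMC5 knockdown and 0 fell. EGR1, IER2, FOSL1 and JUNB were higher by 1.27-, 1.16-, 1.21- and 1.12-fold. Thus 4 of 9 tested members were called higher at an adjusted P under 0.1, whereas 4.44% of all tested genes were called higher, 3.3% lower and 7.75% either way. In 6 of the 9 members every shARMC5 library lay above every shNT library, compared with 12.5% of all tested genes. The median log2 fold change of the 9 members was 0.17, beside -0.00 for all tested genes. The members were chosen with earlier results of these data known, so these shares describe them and are not a test. In bulk RNA, more expressing cells and more RNA per cell cannot be told apart, nor can fewer cells and less RNA per cell.

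The members are short genes, so the calls were set beside those of other short genes. All tested members but FOSL2 and ATF3 span at most 10000 bases, all 4 called members among them. Among the 2797 tested genes of that span, 4.5% were called higher, with a median log2 fold change of 0.02. JUN, JUNB and JUND have a single exon in their main annotated transcript, and of these JUNB was called. Of the 642 tested genes with 1 exon, 1.87% were called higher. Neither share, nor that of all tested genes, was matched for read count. The called members held 1039 to 3155 reads a library, whereas the filter kept genes from 10 reads in 3 libraries.

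The promoters of 3 of the 4 called members, EGR1, JUNB and IER2, are shown here as sequence context for these differences, and no window is shown for FOSL1. RefSeq (GRCh38.p14) start sites gave 9 windows for 8 members, each from 250 bases before to 50 after the start, of which those 3 are printed. Searched on both strands were the TATA box TATAAA, the AP-1 element TGANTCA, the cAMP response element TGACGTCA, the CArG box of serum response factor, the EGR element GCGNGGGCG and the kappa B element, and capitals mark matches. The EGR1 window, chr5:138465229-138465528 on the plus strand, held CArG boxes at positions -105 and -83 and an EGR element at position -198 from the start site. The JUNB window, chr19:12791236-12791535 on the plus strand, held TATAAA at position -31. The IER2 window, chr19:13150161-13150460 on the plus strand, held none of the 6 elements.
EGR1: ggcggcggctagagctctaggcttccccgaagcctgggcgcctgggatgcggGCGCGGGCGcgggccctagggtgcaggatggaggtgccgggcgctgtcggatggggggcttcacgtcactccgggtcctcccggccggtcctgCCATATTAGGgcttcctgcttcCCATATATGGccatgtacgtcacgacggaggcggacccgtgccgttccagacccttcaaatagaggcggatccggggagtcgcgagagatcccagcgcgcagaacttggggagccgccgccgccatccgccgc
JUNB: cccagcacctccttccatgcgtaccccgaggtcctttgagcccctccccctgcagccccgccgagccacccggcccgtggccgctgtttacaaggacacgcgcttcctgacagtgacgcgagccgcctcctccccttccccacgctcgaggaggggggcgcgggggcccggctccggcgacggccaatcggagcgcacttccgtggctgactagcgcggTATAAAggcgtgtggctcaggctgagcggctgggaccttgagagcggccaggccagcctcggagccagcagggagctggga
IER2: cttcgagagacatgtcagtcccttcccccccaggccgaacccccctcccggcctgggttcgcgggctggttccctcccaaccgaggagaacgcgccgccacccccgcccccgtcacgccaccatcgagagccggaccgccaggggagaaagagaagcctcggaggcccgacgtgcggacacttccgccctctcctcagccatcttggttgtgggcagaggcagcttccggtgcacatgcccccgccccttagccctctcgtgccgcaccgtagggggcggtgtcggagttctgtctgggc

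Across the 35116 promoters of the same length, 11.5% held TATAAA, 7.71% the AP-1 element, 1.85% the cAMP response element, 1.29% a CArG box, 9.43% the EGR element and 11.3% the kappa B element. Among the other member windows, FOS held TATAAA at position -33, FOSL2 the AP-1 element at position 4, JUND the cAMP response element at position -200 and 1 of the 2 ATF3 windows TATAAA at position -230. The JUN window held none of these elements. Among the members with a window, EGR1 was thus the one with CArG boxes in it, and the kappa B element was in 0 of the 9 windows. FOSL1 and IER3 had no window, and sequence outside the windows was not searched. These matches are letters in a window and not measured binding sites.

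FOS (chr14:75278826-75282230, plus strand, 4 exons) encodes the prototype partner of JUN. Its level was 2.9, 3.35 and 2.54 CPM in shARMC5 libraries and 2.08, 1.88 and 2.07 CPM in shNT libraries. The groups did not overlap, but FOS was the lowest of the tested members, with 58 to 132 reads a library. Its log2 fold change of 0.55 (SE 0.19) was the largest among the members, and it was not called (adjusted P = 0.125). Main transcript ENST00000303562 took 97 to 100% of FOS reads in 5 libraries and 72.4% in shNT replicate 3.

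FOSL1 (chr11:65892049-65900573, minus strand, 4 exons) encodes FRA1, a FOS protein that lacks the strong transactivation domain of FOS. FOSL1 was at 48.1, 50.1 and 47.2 CPM in shARMC5 libraries and at 38.4, 45 and 37.1 CPM in shNT libraries. It rose, with every shARMC5 library above every shNT library, and shNT replicate 2 lay nearest to the knockdown group. The log2 fold change was 0.27 (SE 0.07, adjusted P = 0.0327). This call ended without shARMC5 replicate 2 (adjusted P = 0.153), without shNT replicate 1 (0.143) and with an offset for transcript length in edgeR (0.227). By limma on log2 TPM it ended too (adjusted P = 0.346 and 0.346). With the length offset in DESeq2 it was kept, at an adjusted P of 0.0997. Over 17 alternatives the fold change was 0.22 to 0.36 on the log2 scale, and FOSL1 was called in 12 of them. Salmon placed 66.7 to 83.3% of FOSL1 reads on ENST00000312562, its main annotated transcript.

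FOSL2 (chr2:28392448-28417317, plus strand, 4 exons) encodes FRA2 and spans the second largest stretch of the members. It was the single member with a negative fold change. Levels were 89.9, 89.6 and 85.6 CPM in shARMC5 and 94.7, 92 and 89.2 CPM in shNT libraries, and the groups overlapped. The log2 fold change was -0.06 (SE 0.04, adjusted P = 0.446), and it was 0.05 (SE 0.06) with the length offset, under which the mean effective transcript length of 4850 bases in shARMC5 and 5240 bases in shNT cells enters the fit.

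JUN (chr1:58776845-58784048, minus strand) encodes c-Jun, the substrate for which the JNK kinases are named. It was at 31.6, 36.1 and 29.9 CPM in shARMC5 libraries and at 29.2, 29.9 and 27.9 CPM in shNT libraries. The groups were separated by less than the rounding of these values, and shARMC5 replicate 2 was the highest. JUN was not called, with a log2 fold change of 0.17 (SE 0.07, adjusted P = 0.19). Without shARMC5 replicate 2 the value was 0.08 (SE 0.06, adjusted P = 0.58), and without shARMC5 replicate 3 it was 0.22 (SE 0.07) and was called (adjusted P = 0.0922).

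JUNB (chr19:12791486-12793315, plus strand) encodes a JUN protein that activates transcription less strongly than c-Jun on many AP-1 sites. JUNB was at 57.2, 56.6 and 60.2 CPM in shARMC5 libraries and at 50.6, 55.5 and 48.8 CPM in shNT libraries. It rose by 0.16 on the log2 scale (SE 0.05, adjusted P = 0.0697), and shNT replicate 2 came close to the lowest knockdown library. The call was the least stable of the 4 and was kept in 6 of 17 alternatives. It ended in DESeq2 without and with the length offset (adjusted P = 0.113 and 0.234). In edgeR it ended without shARMC5 replicate 1, 2 or 3 (0.114, 0.142 and 0.225) or shNT replicate 1 or 3 (0.237 and 0.248). HOOK2, annotated on the opposite strand over the 1830 bases of JUNB, had a log2 fold change of -0.07 (SE 0.06, adjusted P = 0.647), and the counting is not stated to use strand.

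JUND (chr19:18279694-18281622, minus strand) encodes the JUN protein that is present in resting cells. Its levels of 67.4, 64.3 and 67.8 CPM in shARMC5 and 60.6, 65.8 and 61.3 CPM in shNT libraries overlapped. JUND was not called, with a log2 fold change of 0.09 (SE 0.04, adjusted P = 0.302).

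**Figure D1:**
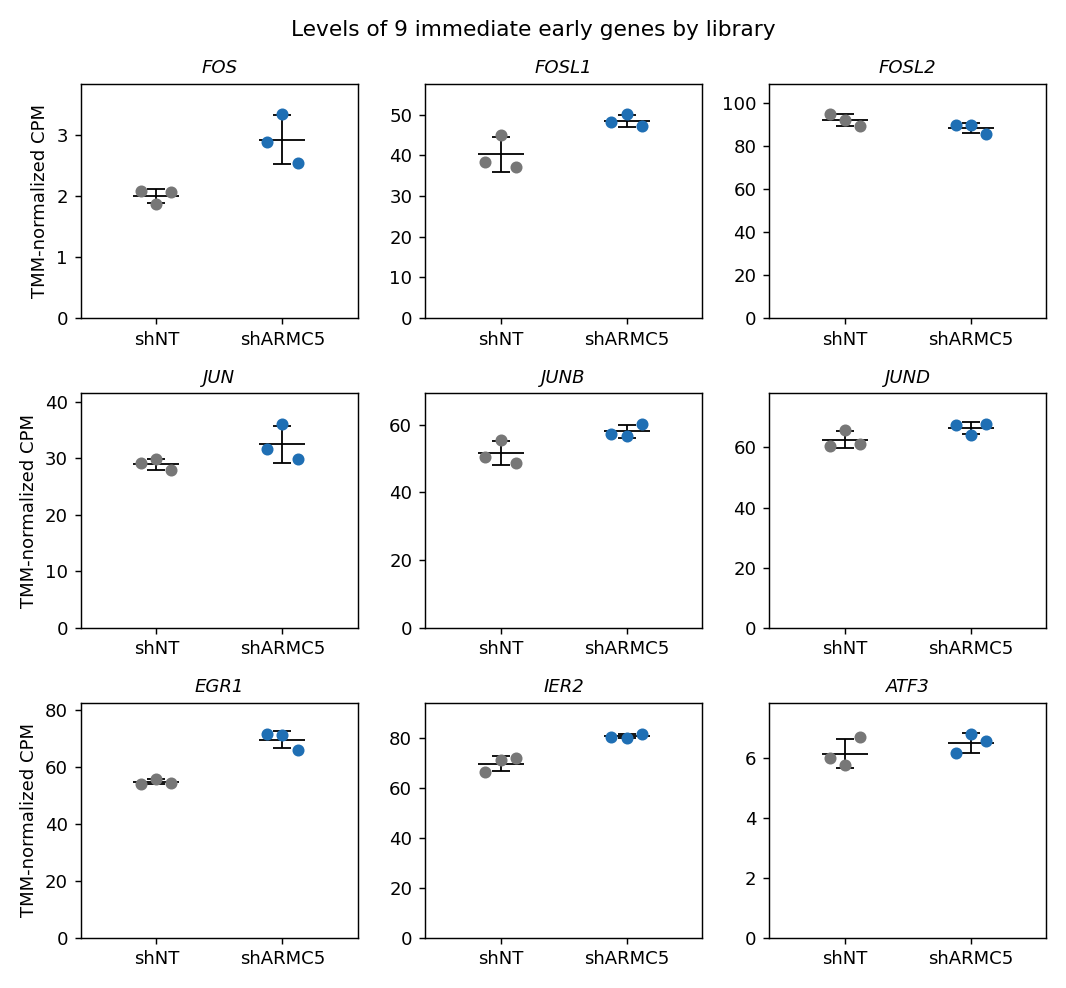
TMM-normalized CPM of the 9 tested members in each library, with shNT in gray and shARMC5 in blue (n = 3 each); horizontal lines and bars show mean ± SD. The groups do not overlap for FOS, FOSL1, JUN, JUNB, EGR1 and IER2, and they overlap for FOSL2, JUND and ATF3.

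EGR1 (chr5:138465479-138469303, plus strand), a zinc finger transcription factor induced through serum response factor and ERK signaling, had the smallest P value of the members. Levels were 71.6, 71.2 and 66 CPM in shARMC5 libraries and 54.1, 55.8 and 54.5 CPM in shNT libraries. The lowest knockdown library was above the highest control library, and the SD was 3.12 CPM in shARMC5 and 0.895 CPM in shNT libraries. EGR1 rose by 0.35 on the log2 scale (SE 0.04, adjusted P = 8.94e-05) and ranked 58 among the 13737 genes by P value. Its reads, 1526 to 2808 a library, came from 1 transcript, ENST00000239938. Its promoter window, printed above, is the one with CArG boxes. Over 17 alternatives its fold change was 0.32 to 0.38 on the log2 scale. EGR1 was called in 15 of them and was not called by limma on log2 TPM (adjusted P = 0.128 and 0.125).

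IER2 (chr19:13150411-13154911, plus strand) encodes a nuclear protein of the immediate early response. IER2 was at 80.3, 80 and 81.5 CPM in shARMC5 libraries and at 66.1, 70.9 and 71.8 CPM in shNT libraries. The knockdown libraries were close to each other and all lay above the control libraries. IER2 rose by 0.21 on the log2 scale (SE 0.04, adjusted P = 0.00379) and ranked 197 by P value. Over 17 alternatives its fold change was 0.18 to 0.24, and it was called in 15, all but limma on log2 TPM (adjusted P = 0.141 and 0.143). ENST00000292433 took 80 to 85.9% of IER2 reads and ENST00000588173 14.1 to 19.8%.

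ATF3 (chr1:212565334-212620777, plus strand), a stress-induced factor that pairs with JUN proteins, has the longest span of the members. It was at 6.17, 6.82 and 6.58 CPM in shARMC5 and at 6, 5.77 and 6.71 CPM in shNT libraries, and the groups overlapped. ATF3 was not called (log2 fold change 0.09, SE 0.12, adjusted P = 0.772), and the value was -0.21 (SE 0.17, adjusted P = 0.673) with the length offset in edgeR. Its short transcript ENST00000613104 took 0 to 4.5% of ATF3 reads in shARMC5 libraries and 10.9 to 15% in shNT libraries, on 28 reads or fewer, and that transcript was not called (adjusted P = 1).

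IER3 (chr6:30743199-30744548, minus strand), a stress-responsive gene linked to survival signaling, was listed at 0 in all 6 libraries on both of its 2 transcripts. Of the 10 nearest protein-coding genes, 8 had reads, ATAT1 was listed at 0 and NRM had no matched transcript. PPP1R10 was listed at 0 in shARMC5 replicate 1 and had 303 to 1761 reads in the other libraries. When reads of transcripts that matched no gene were added to the gene of the transcript listed before them, IER3 passed the count filter as the remaining member. That placement follows list order and identifies no gene, so the 0 holds for the matched transcripts only, and no fold or test is given for IER3.

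**Figure D2:**
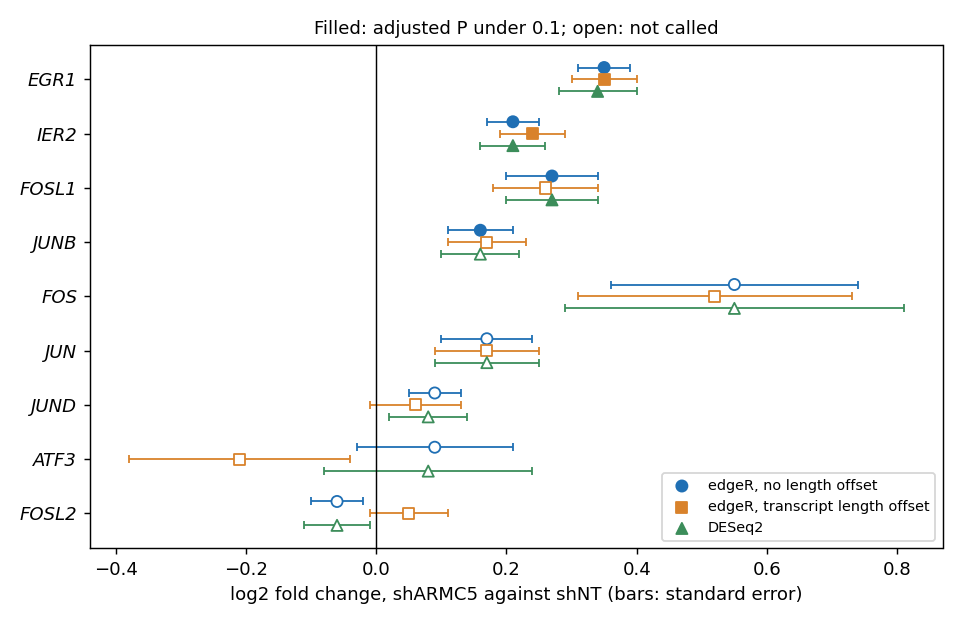
Log2 fold change of each tested member, shARMC5 against shNT, with bars for the standard error, from edgeR without and with a transcript length offset and from DESeq2; filled symbols are called at an adjusted P under 0.1. EGR1 (0.35) and IER2 (0.21) are filled in all 3 fits, and ATF3 and FOSL2 change sign with the length offset in edgeR (-0.21 and 0.05).

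For values of a single gene, a two-sided exact permutation test of 3 libraries against 3 cannot give a P below 0.1. That smallest value was reached by FOS, FOSL1, JUN, JUNB, EGR1 and IER2. The exact permutation P was 0.2 for JUND and 0.3 for FOSL2 and ATF3. Tested transcript by transcript, 15 of the 39 listed member transcripts passed the filter and 0 were called in edgeR's test. In DESeq2 and limma transcripts were not tested. Across all 51892 transcripts tested, 0.00771% were called. At an unadjusted P under 0.05 were 4 of the 15 member transcripts and 2493 of all 51892, and EGR1's had the smallest adjusted P, 0.242.

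Levels were compared between members in TPM. In shNT cells the order from high to low was JUND (61 to 72.9 TPM), IER2 (49.4 to 50.4), JUNB (43.5 to 49.9), FOSL1 (38 to 47), EGR1 (26 to 27.5), FOSL2 (22.6 to 26.8), JUN (11.9 to 13.2), ATF3 (6.79 to 8.48) and FOS (1.44 to 1.75). Ranges of neighbors overlapped for IER2 and JUNB, JUNB and FOSL1, and EGR1 and FOSL2. In shARMC5 cells the order was the same, and only JUNB (51.4 to 53.2 TPM) and FOSL1 (48 to 52.8 TPM) overlapped. EGR1 at 31.4 to 35.1 TPM thereby lay above FOSL2 at 23.9 to 27.2 TPM. The summed TPM of the members was 303 to 318 in shARMC5 and 262 to 294 in shNT libraries.

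**Figure D3:**
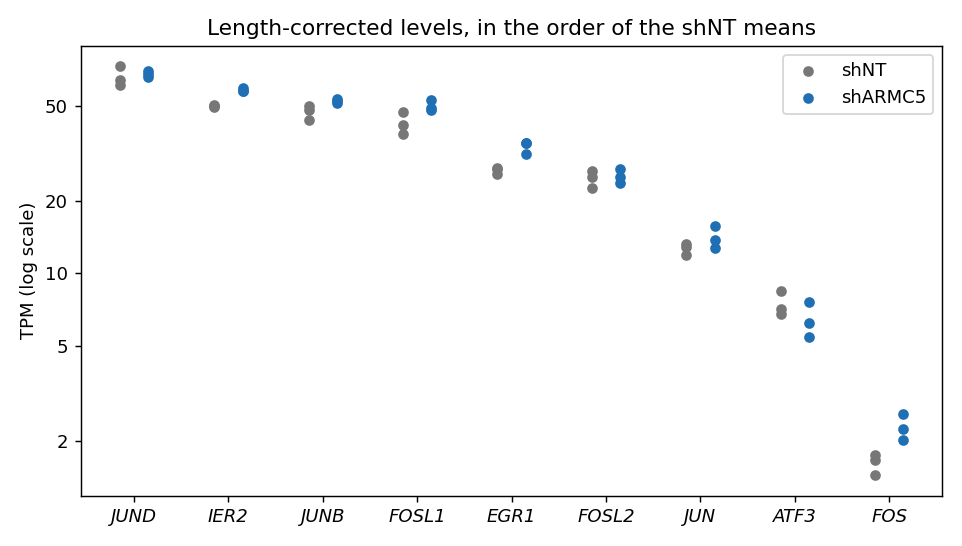
Deposited TPM summed per gene for 9 members in each library on a log axis, in the order of the shNT values, with shNT in gray and shARMC5 in blue (n = 3 each). JUND is highest at 61 to 72.9 TPM in shNT libraries and FOS lowest at 1.44 to 1.75 TPM.

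The makeup of each AP-1 family was described from the same TPM. FOSL1 was the main FOS family transcript, with 63.2 to 65% of the family's TPM in shARMC5 and 58.8 to 63.2% in shNT libraries. FOSL2 took 31.7 to 33.3% and 34.1 to 38% in the 2 groups, and these ranges did not overlap. Its own level was not lower, at 23.9 to 27.2 TPM in shARMC5 and 22.6 to 26.8 TPM in shNT libraries. FOSL1 was at 48 to 52.8 and 38 to 47 TPM. FOS took 2.66 to 3.12% in shARMC5 and 1.94 to 2.77% in shNT libraries. The summed TPM of the FOS family was 75.5 to 82.9 in shARMC5 and 63 to 74.3 in shNT libraries. FOSB, which is no member, took 0.45 to 0.624% in shARMC5 and 0.783 to 1.05% in shNT libraries, on 11 to 36 reads a library. In counts FOSB was not called, with a log2 fold change of 0.66 (SE 0.35, adjusted P = 0.346), and its mean effective transcript length was 3540 bases in shARMC5 and 1590 bases in shNT cells.

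In the JUN family, JUND took 50 to 50.9% of the TPM in shARMC5 and 50.9 to 53.7% in shNT libraries, JUNB 37.6 to 40.3% and 36.7 to 38.5%, and JUN 9.62 to 11.5% and 9.54 to 10.6%. The family sums were 132 to 137 TPM in shARMC5 and 116 to 136 TPM in shNT libraries. The ranges of the groups met for JUND and overlapped for JUNB and JUN, and JUND had the highest share in every library.

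Other genes of the pathway were read from written lists, also chosen with earlier results of these data known, so their counts are description. Each list is read beside all tested genes, of which 4.44% were called higher and 3.3% lower. Of 36 other immediate early genes tested, 11 rose and 2 fell, with a median log2 fold change of 0.07. CCN1 and CCN2, matricellular proteins, rose by 0.64 (SE 0.05, adjusted P = 5.32e-07) and 0.80 (SE 0.09, adjusted P = 4.55e-05). DUSP5, a nuclear phosphatase of ERK, rose by 0.41, PPP1R15A, a phosphatase subunit of the stress response, by 0.32 and ZFP36L1, which directs AU-rich mRNAs to decay, by 0.17. ID1 and ID3, inhibitors of basic helix-loop-helix factors, fell by 0.17 and 0.18. With the length offset in edgeR, this list held 4 genes called higher and 0 called lower, and by limma on log2 TPM at either pseudocount 2 higher and 0 lower. With the length offset in DESeq2, 7 were called higher and 0 lower. The count called lower was also 0 without shARMC5 replicate 2. It was 1 in DESeq2 without the offset, and without shARMC5 replicate 1 or any 1 of the shNT libraries.

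Of 26 AP-1 target genes tested, 10 rose and 1 fell, with a median of 0.15. The metallothionein MT2A rose by 0.22, the matrix protein TGFBI by 0.27, the growth factor TGFB1 by 0.64, the laminin chain LAMB3 by 0.23 and the cyclin CCND1 by 0.17, whereas the detoxifying enzyme GSTP1 fell by 0.09. Under the edgeR length offset this list had 6 genes called higher and 0 called lower, and by limma on log2 TPM at either pseudocount 0 were called. With the length offset in DESeq2, 9 were called higher and 0 lower. The count called lower was also 0 without shARMC5 replicate 2 or 3 or shNT replicate 1 or 3. MMP1, MMP3, MMP7, IL6 and SPP1, which AP-1 controls in other cells, were listed at 0 in every library.

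Partners and regulators were read in the same way, beside 4.44% of all tested genes called higher and 3.3% called lower. Of 12 other AP-1 partners, MAFF, a small Maf protein, rose by 0.38 (SE 0.10, adjusted P = 0.0444) and 0 fell. No partner was called higher with the length offset or by limma on log2 TPM at either pseudocount. The same held without shARMC5 replicate 1 or 2 or shNT replicate 1 or 3. Of 24 kinases and transcription factors upstream of these genes, 0 rose and ELK4, a partner of serum response factor, fell by 0.18 (SE 0.05, adjusted P = 0.0306). The count called lower in that list was 0 with the length offset in edgeR or DESeq2 and by limma at either pseudocount. It was also 0 without shARMC5 replicate 2 and without shNT replicate 1. The count called higher in that list was 1 without shARMC5 replicate 3. Of 17 factors of mRNA decay, ZFP36L1, also in the list of other immediate early genes, rose and 0 fell, and the median was -0.01. With the length offset in edgeR, and by limma at either pseudocount, 0 were called higher. The count called lower was 1 with library size only, 1 without shARMC5 replicate 1 and 3 with a replicate block. Among 9 tested colon epithelial markers, KRT18, KRT8 and KRT19, keratins, rose by 0.25, 0.18 and 0.11, and VIL1, a brush border protein, and the factor ELF3 fell by 1.30 and 0.19. Of these markers 1 was called lower with the length offset, by limma, and without shARMC5 replicate 2, shNT replicate 1 or shNT replicate 3. The count called higher was 2 with the length offset in edgeR and 1 by limma at either pseudocount. Whether the epithelial markers have a part in the members' differences was not tested.

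**Figure D4:**
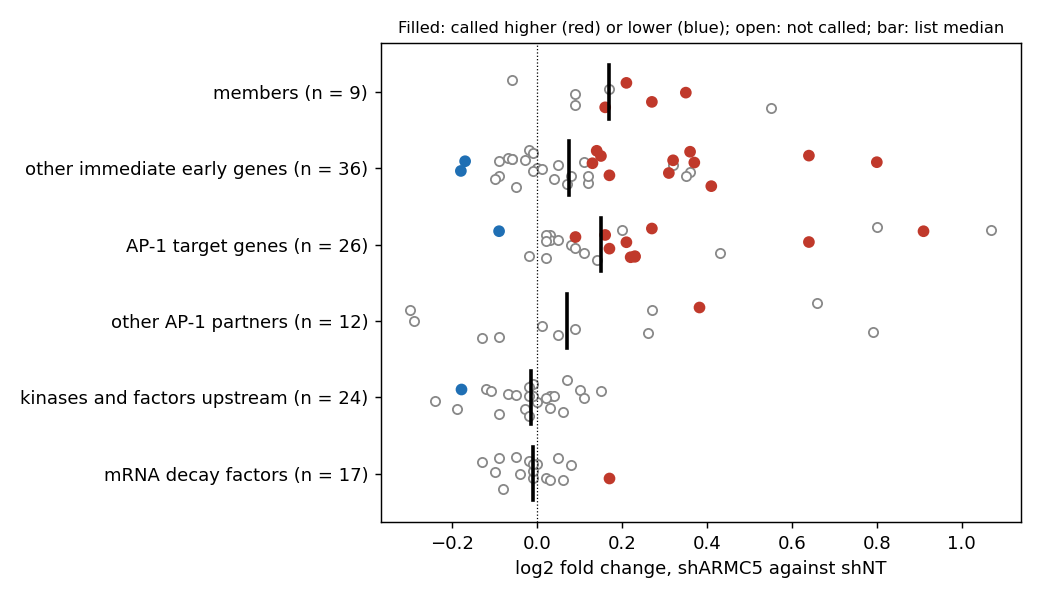
Log2 fold change, shARMC5 against shNT, of each tested gene in the members and 5 written lists; filled red is called higher, filled blue called lower, open not called, and black bars are medians. The medians are 0.17 for the members, 0.15 for AP-1 target genes and 0.07 for other immediate early genes, and -0.02 and -0.01 for upstream factors and decay factors.

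The genes most like EGR1 across the 6 libraries, in a search of 9331 genes whose mean reached 10 CPM, were CCN2, ITGB5 and CTSB, with Pearson correlations of log2 CPM of 0.9965, 0.9956 and 0.9936. These values describe 6 libraries in 2 groups, which differ in level, and carry no test. CCN2 was at 17.8, 16.9 and 14.7 CPM in shARMC5 libraries and at 8.81, 10.2 and 9.35 CPM in shNT libraries. ITGB5, an integrin chain, was at 264, 263 and 253 CPM and at 211, 213 and 211 CPM. CTSB, a lysosomal protease, was at 230, 227 and 219 CPM and at 205, 208 and 206 CPM.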

How the data were processed

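polyA+ RNA-seq of 3 shARMC5 and 3 shNT libraries was analysed. ChIP-seq and other assays of the study were not analysed here. Per the submitters' processing notes, the authors used cutadapt 4.2 and Salmon 1.9.0. The deposited files hold, for each of 177456 transcripts, the estimated count of reads, TPM, length and effective length. The transcript set is not given in the sources used here. Identifiers were matched without version to GENCODE 44 (165533 matched), and the 11923 unmatched transcripts were left out. An estimated count can be moved between transcripts that share sequence, so gene sums are firmer than transcript values.

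Gene sums of the estimated counts were rounded, and a gene was kept where 3 or more libraries had 10 or more. edgeR 4.0.16 under R 4.3.3 fitted a robust quasi-likelihood model of condition alone with TMM factors. P values of its F test were adjusted by Benjamini-Hochberg over all 13737 genes, and an adjusted P under 0.1 was a call. SE is the size of the log2 fold change divided by the square root of F. TPM as deposited was summed per gene for levels. Single values were compared with exact permutation tests (scipy 1.17.1). Tests were tried on simulated data. FOS and ATF3 had the fewest reads and the largest SE of the tested members. The uncertainty of dividing reads between transcripts is not in the SE.

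Alternatives were DESeq2, the study's tool, run here in version 1.42.0, and limma 3.58.1 on log2 TPM. The study summarized Salmon values with tximeta before DESeq2, and its methods do not state whether transcript length entered its fit. Further alternatives were other size factors and filters, transcript length offsets in edgeR and DESeq2, each library left out, a replicate block and other thresholds. In another, unmatched reads were added to the gene of the transcript listed before them. The labels do not say whether replicate numbers pair the libraries, and the main fit did not pair them. Named were the members, ARMC5, at most 5 called genes each way of a list, by smallest P, and the 3 genes most correlated with the member of smallest P. FOSB, HOOK2, the genes near IER3, the epithelial markers with levels and the target genes listed at 0 were added after values were seen. Members and lists were chosen with earlier results of these data known.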

Additional observations from a re-analysis of the deposited data

How the results depend on the processing

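Of 1064 genes called, the count moved to 234 with the transcript length offset in edgeR, 568 with it in DESeq2, 67 and 69 by limma on log2(TPM + 0.5) and log2(TPM + 0.1), 676 at an adjusted P under 0.05 and 34 with a log2 fold change of at least 1. In the main fit 610 genes were called higher and 454 lower, whereas with library size only 458 were higher and 495 lower. By limma 33 were higher and 34 lower at 0.5, and 34 and 35 at 0.1. Every other fit called more genes higher than lower. Leaving out 1 library gave 536 (without shNT replicate 1) to 1074 genes, with 583 without shARMC5 replicate 2 and 675 without shNT replicate 3. Of 4 members called, 2 to 4 were called with a library left out, 2 (EGR1 and IER2) with the length offset in edgeR, 0 by limma at either pseudocount (5 at an unadjusted P under 0.05, and 3 by DESeq2) and 0 at a log2 fold change of at least 1. Without shARMC5 replicate 2 or shNT replicate 1, FOSL1 and JUNB were not called. FOSL2 turned to 0.05, 0.05, 0.03 and 0.04, and ATF3 to -0.21, -0.21, -0.21 and -0.23, with the length offset in edgeR and DESeq2 and by limma at 0.5 and 0.1. The cause was not tested. FOS was called in 0 of 17 alternatives (adjusted P 0.118 to 0.463) and JUN in 3. With the replicate block, 1766 genes and 5 members (JUN added) were called. Same-numbered libraries had correlations of -0.014, -0.006 and -0.022, and libraries did not all correlate best with their own number. The numbers are therefore not taken as pairs, but the block called more genes than the main fit, and pairing is not settled. With unmatched reads added to the gene listed before them, 10 members passed the filter, IER3 included, and 4 were called; list order identifies no gene. FOS had the fewest reads of the tested members, 58 to 132 a library.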
